A study of Mus musculus with 8 samples.

Results

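The 9 genes described here encode transcription factors that set up and maintain the identity of hepatocytes: Hnf4a, Foxa1, Foxa2, Foxa3, Cebpa, Cebpb, Nr5a2, Onecut1 and Prox1. Open chromatin around them was read from ATAC-seq of fasted mouse liver, an assay in which a transposase cuts accessible DNA. A consensus region, the merged extent of overlapping peaks of all libraries, was assigned to a gene when that gene was the nearest mm10 protein-coding gene within 100 kb of its span. By this rule 118 of 49587 consensus regions belonged to the 9 genes. The rule used distance alone and no measured value, and nearness does not show which gene a region acts on.

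The livers came from male C57BL/6 mice aged 9 weeks that had been fasted for 24 h. There were 4 genotypes with 2 libraries each: wild type (WT), Cpt2 L-/-, in which the long-chain fatty acid oxidation enzyme Cpt2 is lost in liver, Ppara -/-, which lacks the fatty acid-sensing nuclear receptor Ppara, and the Cpt2 L-/- ; Ppara -/- double knockout. The Cre driver of the liver knockout and any relation between animals are not given in the sources used here, and nothing in the labels says that the 2 libraries of a genotype came from separate mice. If they did not, the p-values below measure only technical spread. WT and Cpt2 knockout are called Ppara-intact below, and Ppara knockout and double knockout Ppara-null.

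These factors act as a network. FOXA proteins are pioneer factors that open chromatin in foregut endoderm, HNF4A and NR5A2 are nuclear receptors that drive metabolic genes, ONECUT1 and PROX1 act in hepatoblasts and in the choice between hepatocyte and bile duct fates, and the C/EBP proteins control gluconeogenic and acute phase genes. Many of them bind the promoters and enhancers of one another, which keeps the program stable in the adult liver. During fasting, HNF4A, FOXA2, CEBPA and CEBPB are known to take part in switching on gluconeogenesis and fat oxidation beside PPARA.

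The peak lists held 28733 to 39296 peaks in Ppara-intact libraries and 18132 to 22715 in Ppara-null ones, so every count of calls has to be read against list length. The median −log10 p of a list, the authors' strength value for a peak, ran from 28.4 to 36.7 where Ppara was intact and from 19.5 to 22.4 where it was missing. Read depth per library is not given in these files. The number in the deposited peak names was 441, 443, 446 or 4717 for the Ppara-intact livers and 6831, 6832, 6833 or 6834 for the others. What it stands for is not stated. Should it mark a batch, no batch would hold both kinds of liver, and the 2 cannot be told apart. Because the lists differ in length, results are also given for equal-number lists, which keep the strongest 18132 peaks of each library. In whole liver, fewer cells with an open region and less opening per cell cannot be told apart.

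The start sites that anchor these regions are shown first, as the 250 bases upstream of the annotated start on the gene's strand (RefSeq, GRCm38.p6, the assembly of mm10). The pair from Hnf4a is shown because its 2 annotated starts differed in peak strength, Foxa2 start 1 because its region had no peak in any Ppara-null library, Cebpa because its region had a peak in every library, and Foxa1 because its window holds a forkhead motif. Capitals mark motif matches found on either strand, of which the Hnf4a start 2 window holds none. Hnf4a start 1 spans chr2:163506607-163506856, plus strand, and Hnf4a start 2 chr2:163546905-163547154, plus strand. Foxa1 spans chr12:57546112-57546361, minus strand, Foxa2 start 1 chr2:148046970-148047219, minus strand, and Cebpa chr7:35119043-35119292, plus strand.
Hnf4a start 1: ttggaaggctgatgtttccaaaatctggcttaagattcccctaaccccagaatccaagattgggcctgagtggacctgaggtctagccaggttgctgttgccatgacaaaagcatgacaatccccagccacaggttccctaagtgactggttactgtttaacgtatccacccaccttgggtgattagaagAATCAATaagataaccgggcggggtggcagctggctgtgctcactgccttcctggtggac
Hnf4a start 2: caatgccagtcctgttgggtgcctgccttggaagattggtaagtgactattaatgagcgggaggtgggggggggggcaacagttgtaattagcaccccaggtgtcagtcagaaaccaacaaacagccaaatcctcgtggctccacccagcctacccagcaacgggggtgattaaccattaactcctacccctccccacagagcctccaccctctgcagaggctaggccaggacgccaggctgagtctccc
Foxa1: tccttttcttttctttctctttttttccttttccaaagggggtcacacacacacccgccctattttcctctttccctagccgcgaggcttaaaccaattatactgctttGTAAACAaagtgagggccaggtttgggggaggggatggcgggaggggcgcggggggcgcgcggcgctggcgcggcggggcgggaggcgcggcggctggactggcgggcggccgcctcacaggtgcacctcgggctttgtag
Foxa2 start 1: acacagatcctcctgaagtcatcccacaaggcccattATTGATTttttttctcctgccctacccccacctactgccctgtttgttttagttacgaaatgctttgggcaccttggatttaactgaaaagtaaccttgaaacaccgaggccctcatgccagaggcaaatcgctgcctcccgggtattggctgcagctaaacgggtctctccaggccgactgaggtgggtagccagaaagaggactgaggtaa
Cebpa: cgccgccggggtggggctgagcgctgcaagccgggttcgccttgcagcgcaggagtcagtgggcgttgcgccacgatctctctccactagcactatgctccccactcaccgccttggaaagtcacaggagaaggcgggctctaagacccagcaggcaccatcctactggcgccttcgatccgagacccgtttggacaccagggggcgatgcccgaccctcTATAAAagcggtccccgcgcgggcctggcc

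Motifs were searched as exact letters on both strands in the 14 start windows of the 9 genes and in all 32851 windows of the promoter table. The forkhead core TGTTTAC, the type of site FOXA proteins bind, occurred in 1 of the 14 windows, that of Foxa1, 141 to 135 bases upstream of the start, and in 3.17% of all windows. The ONECUT core ATTGATT occurred 60 to 54 bases upstream of Hnf4a start 1 and 213 to 207 bases upstream of Foxa2 start 1, so in 2 of 14 windows against 2.61% of all. The C/EBP pattern TTGCNNAA occurred in 1 window, Nr5a2 start 2, against 9.56% of all. The TATA letters TATAAA lay 30 to 25 bases upstream of Cebpa and 36 to 31 bases upstream of Foxa3, on the gene's strand. At Prox1 start 1 they lay 34 to 29 bases upstream but on the opposite strand, so the gene's strand reads TTTATA. On the opposite strand they also occurred farther out at Nr5a2 start 1 and Foxa2 start 3. With both strands searched, 12.4% of all windows held them. None of the 14 windows held the HNF4 letters CAAAGTCCA (0.384% of all windows), the NR5A2 letters CAAGGTCA (1.33%), the CRE letters TGACGTCA (1.55%) or the direct repeat of nuclear receptors (0.0335%). These matches are descriptions of letters and say nothing of binding.

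Hnf4a, the nuclear receptor that is a central regulator of the adult hepatocyte, had a region over each of its 2 starts, both called in all 8 libraries. At start 2, the downstream one, which adult liver is known to use, −log10 p was 115 and 147 in WT, 155 and 93.0 in Cpt2 knockout, 30.6 and 42.6 in Ppara knockout, and 42.7 and 55.0 in double knockout livers (chr2:163546747-163547377). At start 1, known mainly from fetal liver and pancreas, the values in the same order were 26.1, 44.9, 47.9, 30.5, 15.8, 21.7, 14.0 and 15.3 (chr2:163506554-163507104). Every Ppara-intact value lay above every Ppara-null value at both starts, as in 76.4% of all regions called in all 8 libraries. Start 2 exceeded start 1 in each of the 8 libraries. Within its own list, the start 2 peak ranked at percentile 89.9 to 95.4 with Ppara intact and 72.2 to 92.1 without it, so the ranks overlapped. The start 1 peak ranked at percentile 45.8 to 62.9 and 17.1 to 57.8. Summits of the start 2 peaks fell at positions -30 to 31 relative to the start.

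**Figure D1:**
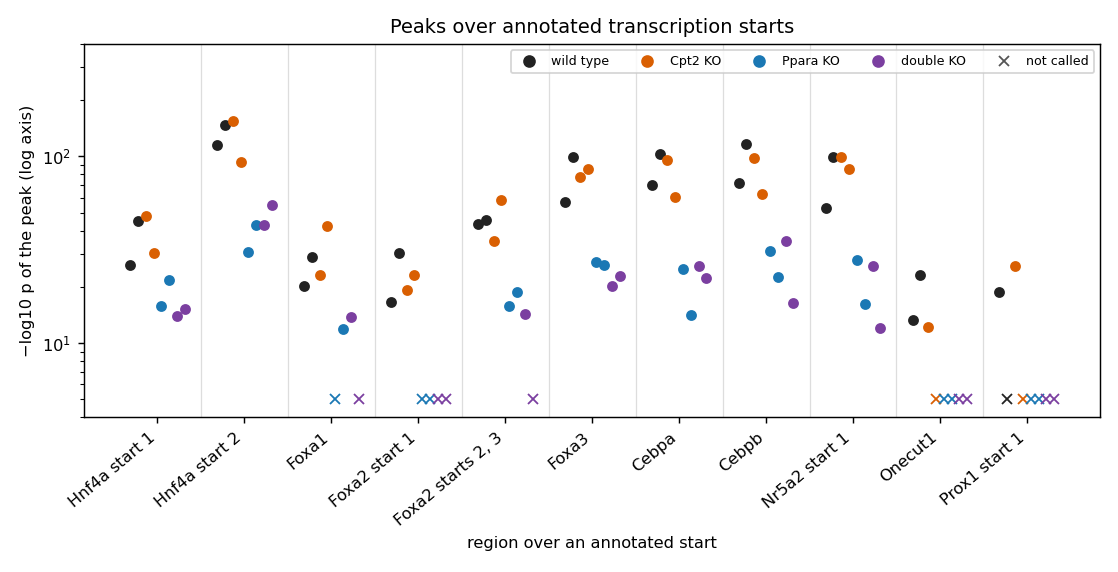
−log10 p of the peak over each annotated start, per library, on a log axis, with a cross for a library without a peak. The Hnf4a start 2 peak lies between 93.0 and 155 in the 4 Ppara-intact and between 30.6 and 55.0 in the 4 Ppara-null libraries. Foxa2 start 1, Onecut1 and Prox1 start 1 have crosses for all 4 Ppara-null libraries. Onecut1 also has a cross for Cpt2 knockout 2, and Prox1 start 1 for WT 2 and Cpt2 knockout 2.

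The 3 FOXA genes differed at their starts. Foxa3, known as an abundant member in adult liver, had a peak in all 8 libraries in the region over its start, with −log10 p of 57.1 and 99.3 in WT, 77.7 and 85.9 in Cpt2 knockout, 27.1 and 26.2 in Ppara knockout, and 20.1 and 22.7 in double knockout livers (chr7:19023357-19024844). The summit lay at positions -761 to -624 relative to the start in 7 libraries and at -169 in double knockout 1, and the region also overlaps the neighbouring gene Sympk, so these values are not those of the Foxa3 start alone. Foxa1 had its start peak in 6 libraries, with values of 20.2 and 29.0 in WT, 23.2 and 42.4 in Cpt2 knockout, 12.0 in Ppara knockout 2 and 13.8 in double knockout 1 (chr12:57545564-57546185). The other 2 Ppara-null libraries had no Foxa1 start peak, and the 2 peaks present there were weaker than all 4 Ppara-intact ones.

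Foxa2, the pioneer factor tied to fasting metabolism, has 3 annotated starts. The region over start 1 had a peak in each Ppara-intact library, at −log10 p of 16.6, 30.3, 19.3 and 23.1, and in no Ppara-null library (chr2:148046800-148047208). The region over starts 2 and 3 was called in 7 libraries, at 43.3, 45.4, 35.4 and 58.4 in Ppara-intact, at 15.8 and 18.7 in Ppara knockout and at 14.3 in double knockout 1 (chr2:148045425-148046537). So the region over the downstream starts had a peak in 3 of 4 Ppara-null libraries and that over the upstream start in none. In double knockout 1 the summit lay at position -461 relative to start 2 and -945 relative to start 3. In the other libraries with a peak it lay at 227 to 375 and at -257 to -109. The double knockout 1 peak is thus not shown to lie at the downstream starts. In equal-number lists the start 1 region was called in 0 libraries, so its 4 peaks are all among the weaker peaks of their lists and the contrast cannot be read there.

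Cebpa and Cebpb, leucine zipper factors of gluconeogenic and acute phase genes, had start peaks in all 8 libraries, in equal-number lists too. The Cebpa values were 70.01 and 103 in WT, 95.2 and 60.8 in Cpt2 knockout, 25.0 and 14.2 in Ppara knockout, and 25.7 and 22.3 in double knockout livers (chr7:35118940-35119552). The Cebpb values in the same order were 72.1, 117, 98.5, 62.8, 31.0, 22.6, 35.0 and 16.4 (chr2:167687564-167689308). At both genes the lowest Ppara-intact value was above the highest Ppara-null value, as in 76.4% of all regions called in all 8 libraries. Cebpa summits lay at positions -149 to -93 relative to the start. Cebpb summits lay up to 168 bases downstream of the start except in double knockout 2, where the position was -615.

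Nr5a2, an orphan receptor that controls bile acid and cholesterol genes, had its start 1 peak in all 8 libraries, with −log10 p of 52.8 and 98.7 in WT, 98.7 and 85.2 in Cpt2 knockout, 27.7 and 16.2 in Ppara knockout, and 26.0 and 12.0 in double knockout livers (chr1:136960394-136960978). Start 2 of Nr5a2 had no region. At start 1 the 2 sides did not overlap, as in 76.4% of all regions called in all 8 libraries. A second region beside it, inside the first kb of the gene at chr1:136959570-136959950, had peaks in all 4 Ppara-intact libraries, at 44.6, 33.2, 33.7 and 39.4, and in no Ppara-null one.

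Onecut1 and Prox1, a cut-homeodomain and a homeodomain factor of early liver development, had start peaks in the fewest libraries among the genes, 3 and 2. The Onecut1 start peak reached −log10 p of 13.2 and 23.1 in WT and 12.2 in Cpt2 knockout 1, and was absent from the other 5 libraries (chr9:74861609-74861993). The Prox1 start 1 peak reached 18.7 in WT 1 and 25.9 in Cpt2 knockout 1 and was absent from the other 6 (chr1:190170455-190170840), and start 2 had no region. No Ppara-null library had a peak at either start, yet a Ppara-intact library also lacked each of them, and neither was called in any equal-number list.

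The remaining regions within 1 kb of a gene end were irregular, and those at Foxa1 and Cebpa were weak. Beside Foxa1, in a span that also overlaps Ttc6, chr12:57546852-57547099 had peaks in WT 2, both Cpt2 knockouts and Ppara knockout 1, at −log10 p of 12.6, 18.7, 12.0 and 12.5. At the far end of Foxa3, chr7:19012377-19012688 had peaks in WT 2, Cpt2 knockout 2 and Ppara knockout 1, at 29.7, 28.6 and 19.8. Flanking Cebpa, chr7:35118421-35118672 had peaks in Cpt2 knockout 2 and Ppara knockout 2, at 12.1 and 12.3, and chr7:35122560-35122904 in WT 2 and Cpt2 knockout 1, at 11.8 and 13.2. None of these 4 regions followed a genotype.

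Most of the 118 regions lay away from the starts. The members had 4 to 22 regions each, with 22 at Nr5a2, 18 at Foxa2, 17 at Prox1, 15 at Cebpa, 14 at Hnf4a, 14 at Cebpb, 9 at Onecut1, 5 at Foxa1 and 4 at Foxa3. The median was 14, against a median of 2 over the 15166 genes with a region, and 2.02% of those genes had at least 14. Gene ends, taken with 1 kb around them, held only 14 regions (11.9%, against 25.8% of all other regions), while 31 lay inside a gene, 17 upstream and 56 downstream. Nr5a2 and Hnf4a held 13 and 9 of the 31 internal regions. Cebpa, Cebpb and Foxa2 had none inside the gene and 9, 12 and 14 downstream. Median width was 374.5 bp, close to the 381 bp of the other regions. One region each of Foxa1 and Foxa3 also overlapped a second gene, Ttc6 and Sympk.

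**Figure D2:**
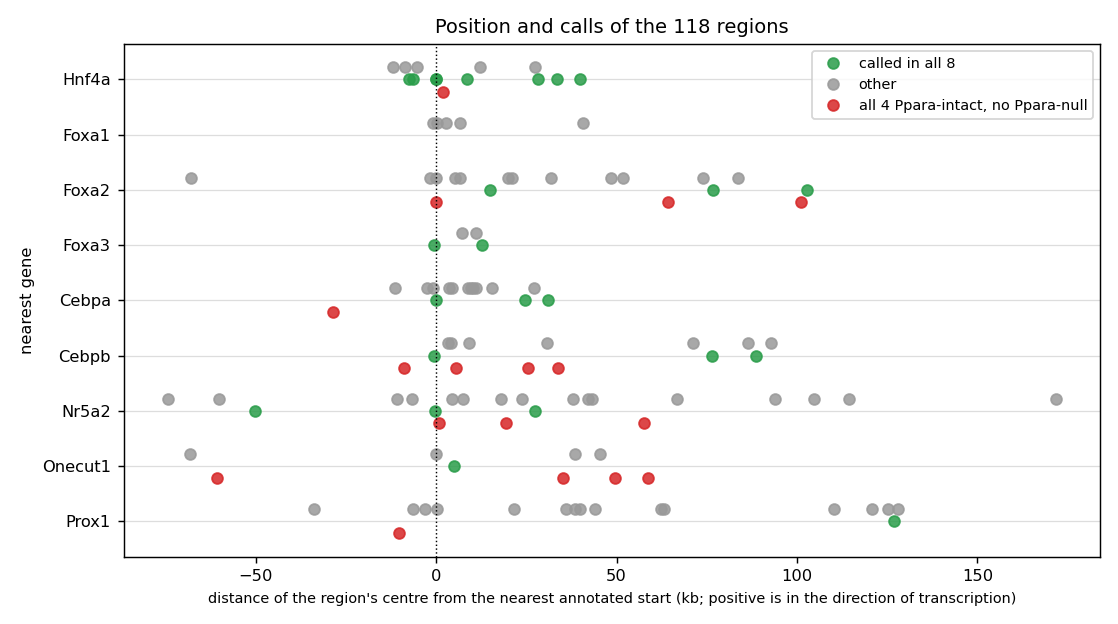
Distance in kb of the centre of each of the 118 regions from the nearest annotated start of its gene, with positive values in the direction of transcription. Green marks the 24 regions called in all 8 libraries, red the 17 called in no library but the 4 Ppara-intact ones, and grey the rest. Cebpb, Onecut1, Foxa2 and Nr5a2 hold 14 of the 17 red points, most of them away from the start.

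On average, fewer regions were called in Ppara-null than in Ppara-intact livers at each of the 9 genes. Of the 118 regions, WT libraries called 78 and 98, Cpt2 knockouts 99 and 91, Ppara knockouts 45 and 43, and double knockouts 51 and 39. The mean was 91.5 ± 9.68 in Ppara-intact and 44.5 ± 5.0 in Ppara-null libraries (SD, n = 4 each), a difference of -47 regions, and the 2 sides did not overlap. Expressed as shares, 77.5% of these regions were called in Ppara-intact and 37.7% in Ppara-null libraries, against 69.4% and 38.9% of the other regions. The 9 genes were thus above other regions in Ppara-intact livers and close to them in Ppara-null ones. In equal-number lists the means were 49.25 ± 2.63 and 41.75 ± 2.75 regions (SD, n = 4 each), or 41.7% and 35.4%, against 36.3% and 35.7% of the other regions. The difference of -39.8 percentage points in the full lists became -6.36 in equal-number lists. That of the other regions went from -30.5 to -0.673. The 22 other hepatocyte regulators described below had 40.2% and 34.9% in equal-number lists, near the shares of the 9 genes.

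By gene, the ratio of Ppara-null to Ppara-intact calls ran from 0.303 at Onecut1 to 0.735 at Hnf4a. The median was 0.438, against 0.609 over 14895 genes. The median number of regions was 2 over all genes with a region and 14 over the members. No ratio matched for the number of regions was computed. Onecut1 had 8 and 9 of its 9 regions called in WT, 9 and 7 in Cpt2 knockout, 3 and 1 in Ppara knockout, and 3 and 3 in double knockout livers. Hnf4a had 13 and 13 of 14 in WT, 12 and 11 in Cpt2 knockout, and 9 in each of the 4 Ppara-null livers. Onecut1 thus had few calls in Ppara-null livers, while Hnf4a gave an identical count in each of them and had 8 of 14 regions called in all 8 libraries.

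The other genes lay between these. Nr5a2 had 14, 21, 21 and 17 of 22 regions called in the Ppara-intact and 9, 7, 10 and 6 in the Ppara-null libraries. Foxa2 had 11, 15, 14 and 13 of 18 against 5, 7, 8 and 5, and Prox1 had 8, 11, 16 and 9 of 17 against 5, 3, 5 and 4. At all 3 genes the highest Ppara-null count was below the lowest Ppara-intact count, and Prox1 varied most within the Ppara-intact side, with 16 in Cpt2 knockout 1 alone. Cebpa had 10, 10, 10 and 13 of 15 regions against 6, 7, 7 and 5, and Cebpb had 9, 11, 11 and 13 of 14 against 4, 5, 4 and 5. Foxa1 had 2, 4, 3 and 4 of 5 against 1, 2, 2 and 0, and Foxa3 had 3, 4, 3 and 4 of 4 against 3, 2, 3 and 2. The C/EBP genes separated without overlap, and the sides of Foxa1 and Foxa3, with the fewest regions, overlapped.

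**Figure D3:**
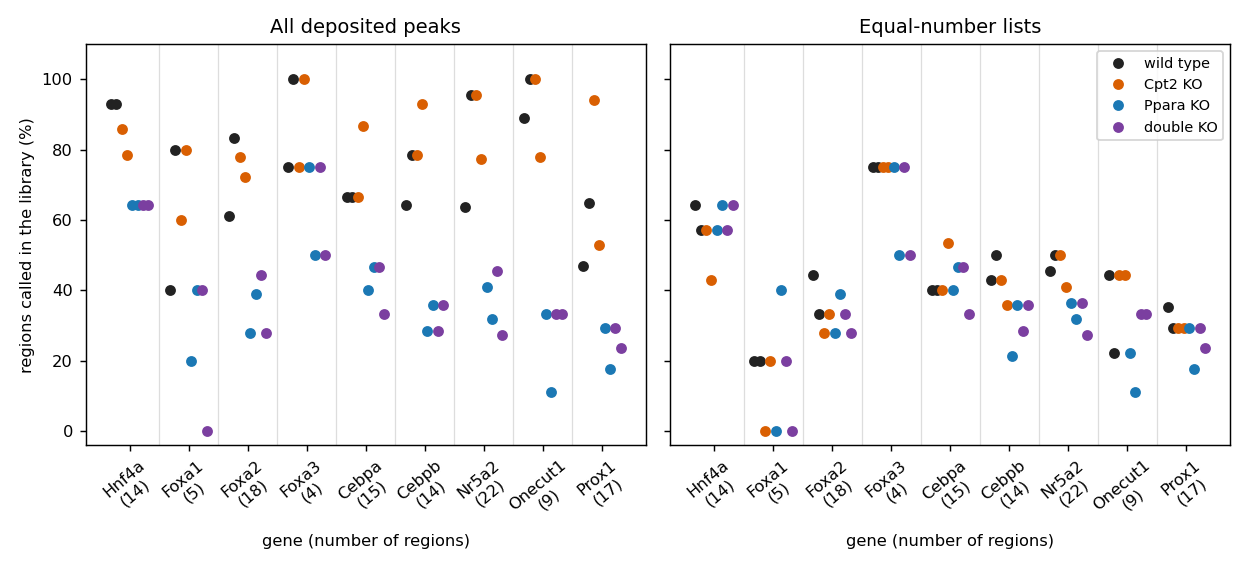
Percent of a gene's regions called in each of the 8 libraries, coloured by genotype, in all deposited peaks (left) and equal-number lists (right); the number of regions stands under each gene. In full lists 7 of the 9 genes have all Ppara-null points below all Ppara-intact points, and in equal-number lists only Nr5a2 has.

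In full lists 7 of the 9 genes had fewer called regions in each of the 4 Ppara-null libraries than in any Ppara-intact one. Over all genes with a region 17.2% did, over those with at least 4 regions 40.5%, and over the 306 with at least 14 regions 75.2%, against 6 of 6 members of that size. None of the 9 had more calls in all Ppara-null libraries, against 0.0725% of all genes. The two-sided exact permutation test over 70 orders gave p = 0.0286 for each of the 7 genes, the smallest it can give, p = 0.0857 for Foxa1 and p = 0.171 for Foxa3. After Benjamini-Hochberg adjustment over 15166 genes these became 0.166, 0.348 and 0.443, so no member passed 0.05 by this exact test, and no gene of the whole table did (0.0%), while 2614 (17.2%) had an unadjusted p under 0.05. In equal-number lists Nr5a2 alone separated, with 10, 11, 11 and 9 against 8, 7, 8 and 6 regions, means of 10.25 ± 0.957 and 7.25 ± 0.957 (SD, n = 4 each, exact permutation p = 0.0286, adjusted p = 1). That is 1 of 9 members, against 1.45% of all genes and 3.35% of those with at least 4 regions, and at an unadjusted p under 0.05 lay 2.58% of all genes, with 0.0% past adjustment. There the Hnf4a means were 7.75 and 8.5, higher in Ppara-null libraries, those of Foxa1 were both 0.75, and those of Onecut1 were 3.5 and 2.25.

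Regions with a peak in every Ppara-intact library and none in any Ppara-null library numbered 17, or 14.4% of the 118, against 6.82% of all regions. Among regions over 1 kb from a gene end the shares were 14.4% and 7.59%. No member region was called in all 4 Ppara-null libraries alone, against 0.0686% of all. The exact permutation p of each such region was 0.0286 and its adjusted p 0.415 over 49587 regions, where none passed 0.05 (0.0%) and 3418 (6.89%) had an unadjusted p under 0.05. Their peaks were of middling strength, with −log10 p of 14.1 to 83.1 and a mean within-list percentile of 23.2 to 63.7. By place, 8 lay downstream, 4 upstream, 3 inside a gene and 2 within 1 kb of a gene end.

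Cebpb held 4 of the 17, out of 14 regions. The strongest, chr2:167714306-167714687, lay 23874 bp downstream with −log10 p of 26.5 and 67.7 in WT and 83.1 and 33.5 in Cpt2 knockout livers. It was the only one of the 17 still separated in equal-number lists, where 1 of 118 (0.847%) was, against 0.811% of all regions, and none was separated the other way, against 0.512%. The others at Cebpb lay 8633 bp upstream (chr2:167679977-167680282, values of 16.6 to 20.5), 3730 bp downstream (chr2:167694162-167694603, 26.5 to 56.2) and 32101 bp downstream (chr2:167722533-167722970, 30.1 to 45.0). These 4 regions flank the Cebpb start region, which was called in all 8 libraries.

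Onecut1 also held 4 of the 17, out of 9 regions. They lay 60415 bp upstream (chr9:74800978-74801506, −log10 p of 23.3 to 33.9) and 7180, 21733 and 30868 bp downstream (chr9:74896828-74897162, 17.4 to 34.6; chr9:74911381-74911729, 14.1 to 42.9; chr9:74920516-74920801, 18.3 to 51.4). Foxa2 held 3, its start 1 region and 2 far downstream, at 98294 bp (chr2:147944219-147944583, 19.8 to 25.0) and 61446 bp (chr2:147981074-147981431, 16.6 to 37.6). Nr5a2 held 3, the region beside its start and 2 inside the gene (chr1:136895847-136896259, 19.9 to 59.5, and chr1:136934057-136934386, 14.3 to 39.8). Hnf4a, Cebpa and Prox1 held 1 each: inside Hnf4a 1808 bp past start 2 (chr2:163548768-163549158, 17.8 to 30.4), 28312 bp upstream of Cebpa (chr7:35090543-35090981, 20.9 to 69.9) and 10075 bp upstream of Prox1 (chr1:190180902-190181218, 21.8 to 34.0). Foxa1 and Foxa3 held none.

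**Figure D4:**
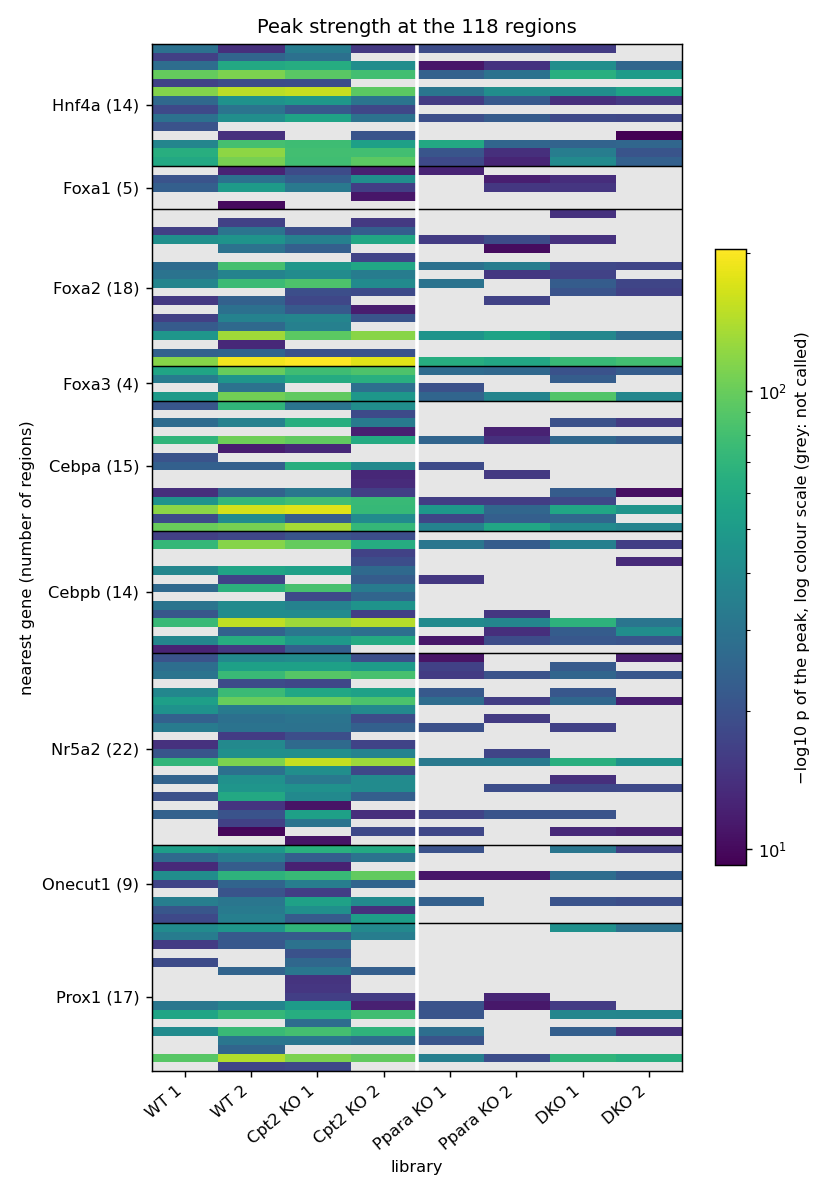
−log10 p, on a log colour scale, of the peak at each of the 118 regions, grouped by gene, in the 8 libraries; a grey cell is a region without a peak in that library. The 4 Ppara-null columns have 39 to 51 coloured cells and the 4 Ppara-intact columns 78 to 99.

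Called in all 8 libraries were 24 regions (20.3%, against 22.7% of all regions): 8 at Hnf4a, 3 each at Foxa2, Cebpa, Cebpb and Nr5a2, 2 at Foxa3, and 1 each at Onecut1 and Prox1. Within 1 kb of gene ends it was 5 of 14 (35.7%, against 45.7% of all such regions), and farther out 19 of 104 (18.3%, against 15.0%). Foxa1 had none. At the other extreme, 16 regions (13.6%, against 23.0% of all) were called in 1 library alone, 15 of them in a Ppara-intact library. The exception, at Foxa2 (chr2:148114669-148114930, in double knockout 1), was the only one of the 118 regions called in no Ppara-intact library (0.847%, against 5.43% of all regions). In no Ppara-null library were 51 called (43.2%), a share near the 42.3% of all regions. The Foxa2 region was picked out after its calls had been seen.

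The top region of each gene was taken as the one with the highest mean percentile within the lists that call it, and most of these had a peak in every library. At Foxa2, chr2:147942537-147943053, 99824 bp downstream, had −log10 p of 116 and 193 in WT, 204 and 179 in Cpt2 knockout, 63.7 and 58.9 in Ppara knockout, and 74.4 and 79.6 in double knockout livers. It ranked at percentile 94.8 to 98.8 of each list, the highest mean percentile (96.5) of the 118 regions. It was also the region nearest to the 100 kb limit, and the first one beyond, 108682 bp from Cebpb, was called in WT 1 and WT 2 alone, at 20.3 and 27.4 (chr2:167799114-167799438), with 21 regions in all nearest to a member but farther away than the limit.

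Among the C/EBP and nuclear receptor genes, the top region of Cebpa lay 21854 bp downstream (chr7:35143782-35144317), at 73.0 to 175 with Ppara intact and 25.5 to 57.5 without it. That of Cebpb lay 74532 bp downstream (chr2:167764964-167765611), at 75.1 to 152 and 30.8 to 68.2, and that of Nr5a2 inside the gene (chr1:136925897-136926438), at 70.5 to 156 and 32.4 to 64.7. In each of these 3 regions the 2 sides did not overlap, as in 76.4% of all regions called in all 8 libraries. That of Prox1 lay 75182 bp downstream (chr1:190042109-190042853), at 91.1 to 142 and 19.2 to 70.2, and that of Onecut1 68040 bp upstream (chr9:74793425-74793881), at 47.3 to 65.8 and, in the 3 Ppara-null libraries with a peak, 16.1 to 30.9. Another Onecut1 region, inside the gene (chr9:74866630-74867167) and picked out after its values had been seen, had a peak in all 8 libraries, at 42.2 to 97.1 and 11.1 to 27.9, but a lower mean percentile (54.9 against 61.5). At Foxa3 the top region, 2345 bp downstream (chr7:19010479-19010938), did overlap, at 47.2 to 105 against 25.4 to 88.1, with double knockout 1 the high one. For Hnf4a it was the start 2 region, and for Foxa1 chr12:57543119-57543544, inside the gene, with 16.3 to 50.3 in Ppara-intact libraries and 15.1 and 15.0 in the 2 Ppara-null ones with a peak.

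Of the 24 regions open everywhere, 19 (79.2%) had a higher −log10 p in all 4 Ppara-intact than in any Ppara-null library, against 76.4% of all regions called in 8 libraries. For the deposited fold over local background it was 14 (58.3%, against 60.0%), and for the percentile within a list 8 (33.3%, against 26.0%). In equal-number lists, where 19 member regions were called in all 8 libraries, none had all Ppara-intact percentiles on top, against 5.96%. The members' shares were thus near those of all regions on each scale. The 5 exceptions by −log10 p were 2 regions each of Hnf4a and Foxa2 and the Foxa3 region 2345 bp downstream. Summits of the 24 regions ranged over a median of 78.5 bp across libraries, against 100 bp for other regions called in all 8.

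By Cpt2 status the mean calls differed by less than the SD of either side. Of the 118 regions, 66.0 ± 26.7 were called in Cpt2-intact and 70 ± 29.5 in Cpt2-null libraries (SD, n = 4 each). The difference of 4 became -1.5 in equal-number lists. Each side holds both Ppara-intact and Ppara-null libraries, so these SDs include the difference by Ppara status. By genotype, the mean share called was 74.6% in WT, 80.5% in Cpt2 knockout, 37.3% in Ppara knockout and 38.1% in double knockout livers. In equal-number lists these shares were 43.2%, 40.3%, 35.2% and 35.6%. The direction of the Cpt2 difference also turned in some cases when 1 library was left out. The difference was -5.67 without Cpt2 knockout 1, -3.0 without Cpt2 knockout 2, -3.0 without Ppara knockout 1 and -3.67 without Ppara knockout 2. Leaving out 1 library gives the Cpt2 sides unequal shares of Ppara-null libraries. These turns thus carry the difference by Ppara status and do not show how stable the Cpt2 difference is. Per gene the exact permutation p ran from 0.657 to 1, over orders that were not kept within Ppara status. Such p-values are thus also set against the difference by Ppara status. Over all genes 0.0% passed adjustment for Cpt2 status and for the interaction, with 0.171% and 0.0593% at an unadjusted p under 0.05, and of all regions 0.0% and 0.103% did for Cpt2 status. For the interaction, no member region was called in all WT and double knockout libraries and no single knockout, or the reverse, against 0.0101% and 0.0121% of all regions.

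One region followed Cpt2. At chr2:148013468-148013738, 29139 bp downstream of Foxa2, peaks were called in both Cpt2 knockout libraries, at −log10 p of 19.4 and 18.5, and in both double knockout libraries, at 20.3 and 16.6, and in none of the 4 Cpt2-intact ones. It is 1 of 118 (0.847%), against 0.0968% of all regions, and the exact permutation p was 0.0286 (adjusted p = 1). No member region was called in the Cpt2-intact libraries alone, against 0.00605%. In equal-number lists it was called in the 2 double knockout libraries and no other, so no member was separated by Cpt2 there, against 0.0403% of all regions. With peaks limited to a −log10 q of 20 or more it was not separated either.

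Genotypes were then compared in pairs, counting regions called in both libraries of one and neither of the other. With 2 against 2 libraries the smallest share of splits is 0.333, so no test was made, and comparisons that name the same genotype share its libraries. Ppara knockout lacked 28 regions of WT (23.7%, against 13.6% of all) and had 0 that WT lacked (against 0.46%). Double knockout lacked 28 of WT (against 12.9%) and had 1 more (0.847%, against 1.2%). It also lacked 28 of Cpt2 knockout (against 20.4%) and had 0 more (against 0.597%). Cebpb and Onecut1 had 5 each of the 28 missing in Ppara knockout, Foxa2 and Nr5a2 4 each, Hnf4a, Cebpa and Prox1 3 each, and Foxa3 1. In equal-number lists Ppara knockout lacked 6 (against 3.44%) and had 0 more (against 2.38%) relative to WT. Double knockout there lacked 5 (against 3.35%) and had 3 more (against 3.08%) relative to WT. Relative to Cpt2 knockout it lacked 3 (against 2.99%) and had 3 more (against 2.61%).

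Cpt2 knockout had 3 regions that WT lacked (2.54%, against 3.63% of all) and lacked 0 of WT (against 0.512%). In equal-number lists it had 0 more (against 0.918%) and lacked 1 (against 0.815%). The 3 were the Foxa2 region that followed Cpt2, a Cebpb region at chr2:167719557-167719842 with −log10 p of 18.3 and 25.3, and a Prox1 region at chr1:190129609-190129923 with 16.3 and 16.0 that Ppara knockout 2 also had, at 12.6. With 1 library left out the counts became two-sided, with 3 more and 3 fewer without WT 1, 10 and 2 without WT 2 and 11 and 7 without Cpt2 knockout 1, and with 8 and 0 without Cpt2 knockout 2. The Cebpb region was the 1 member region found in both Cpt2 knockout libraries and nowhere else, a pattern that 2.69% of all regions had. The Cebpb and Prox1 regions were picked out after their values had been seen, as were the regions of the next paragraph.

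Double knockout had 4 regions that Ppara knockout lacked (3.39%, against 2.33% of all) and lacked 0 (against 1.45%). In equal-number lists it had 4 more (against 2.03%) and lacked 1 (against 1.84%). With 1 library left out it had 10 more and lacked 8 without Ppara knockout 1, 6 and 5 without Ppara knockout 2, 6 and 6 without double knockout 1, and 7 and 0 without double knockout 2. One of the 4 was again the Foxa2 region. The other 3 were called in all 6 libraries outside Ppara knockout, which is 2.54% of the 118 against 1.3% of all regions. A Prox1 region 33508 bp upstream (chr1:190204335-190205064) had −log10 p of 41.0 and 47.0 in WT, 70.3 and 39.3 in Cpt2 knockout, and 43.7 and 29.3 in double knockout livers. A Cebpa region 2429 bp upstream (chr7:35116498-35116864) had 27.3, 35.8, 63.9 and 32.9 in the Ppara-intact and 19.9 and 15.8 in the double knockout libraries, and another 8264 bp downstream (chr7:35130192-35130662) had 14.0, 24.6, 31.3 and 16.3, and 22.6 and 10.4. At the Prox1 region and at the second Cebpa region, double knockout 1 lay within the range of the Ppara-intact livers. No member region was missing from double knockout alone, against 0.982% of all regions.

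The wider regulator network gave like shares of called regions. For 22 other hepatocyte regulators, among them Nr1h4, Rxra and Gata4, 262 regions were counted, of which 165, 214, 209 and 194 were called in the Ppara-intact and 102, 81, 120 and 91 in the Ppara-null libraries. That is a mean of 74.6% and 37.6%, close to the 77.5% and 37.7% of the 9 genes. In equal-number lists the means were 40.2% and 34.9%, close to the 41.7% and 35.4% of the 9 genes. Of these 22 genes, 14 had fewer calls in all Ppara-null libraries. Over all genes 17.2% did, and over those with at least 4 regions 40.5%. None of the 22 had more (against 0.0725% of all genes) and none passed adjustment in the exact permutation test (against 0.0%). Of the 262 regions, 28 were called in the Ppara-intact libraries alone, against 6.82% of all regions. In the Ppara-null libraries alone 0 were called (against 0.0686%), and in all 8 libraries 58 were (22.1%, against 22.7%). In equal-number lists 2 and 2 were separated, against 0.811% and 0.512% of all regions. Nfia and Rora, a nuclear factor and a nuclear receptor with 40 regions each, had the most. Nfia had 26, 35, 35 and 33 called in Ppara-intact and 13, 14, 15 and 14 in Ppara-null libraries, and Rora 21, 31, 30 and 31 and 14, 10, 18 and 13.

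Markers of liver cell types were counted in the same way. For 8 hepatocyte markers, 62.1% to 81.0% of 58 regions were called with Ppara intact and 44.8% to 56.9% without it, and 7 of the 8 genes had a gene-end region called in all 8 libraries. For 6 bile duct markers, 46.2% to 84.6% and 0% to 15.4% of 13 regions were called, with no region at Krt19, Krt7 or Cftr, and 9 of the 13 were at Sox9. For 6 endothelial markers it was 33.3% to 71.8% and 12.8% to 17.9% of 39 regions, and for 6 stellate cell markers 36.4% to 63.6% and 9.09% to 18.2% of 11. The 6 macrophage markers had 3 regions, with 0 to 2 called with Ppara intact and 0 without it, and none at Adgre1, Cd5l, Marco or Vsig4. In equal-number lists the hepatocyte marker shares turned the other way, to 36.2% to 43.1% with Ppara intact (mean 40.9%) and 44.8% to 56.9% without it (mean 50.9%), while those of the 9 genes had means of 41.7% and 35.4%. There the bile duct shares were 7.69% to 23.1% and 0% to 15.4%, and the endothelial ones 7.69% to 12.8% and 12.8% to 17.9%. Foxa1, Foxa2 and Onecut1 are also known from bile duct cells and Prox1 from lymphatic endothelium. The part of these cell types in the differences was not tested.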

How the data were processed

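The authors deposited 1 peak list per library and a table of consensus positions, per the file headers. BWA, MACS2 2.1.0 and mm10 are named in the submitters' processing notes, without their settings. How duplicates and the Tn5 cut offset were treated is not given in the sources used here. The deposited score, fold over local background (a ratio) and −log10 p and −log10 q belong to single peaks. They served to describe and rank peaks of the same list, and to filter them in 1 alternative. Set side by side across libraries they also move with depth, which is unknown. No read counts per region were used here, so a region was called where it shared 1 bp or more with a peak, and such calls carry no measure of depth.

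Genes came from the RefSeq table of GRCm38.p6, the assembly of mm10 (21896 protein-coding genes). All 9 members matched by symbol. Regions were compared as called or not, and genes by their number of called regions, with a two-sided exact permutation test (70 orders of the 8 libraries) and Benjamini-Hochberg adjustment over all regions or genes. It was tested on simulated data. Alternatives were equal-number lists, −log10 q of at least 20, peaks covering at least 50% of a region, a limit of 10 kb, a replicate block and leaving out each library. Named were all members, their regions at gene ends, those separated by Ppara or Cpt2 status, and per gene the region with the highest mean within-list percentile. Members and gene lists were chosen with earlier results of these data known. One motif search and 1 marker list are not reported here. Python 3.11.15, NumPy 2.4.6, pandas 2.3.3 and matplotlib 3.10.9 were used.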

Additional observations from a re-analysis of the deposited data

How the results depend on the processing

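In equal-number lists the difference by Ppara status fell from 47 to 7.5 fewer called regions, given as -7.5, that by Cpt2 status reversed to -1.5, separated regions fell to 1, and changed regions in both directions together came to 1 for Cpt2 knockout against WT, where the direction reversed, 6 for Ppara knockout against WT, 8 for double knockout against WT and 6 for double knockout against Cpt2 knockout. Under a −log10 q minimum of 20, the pair of Cpt2 knockout and WT reversed to 1 region. With a limit of 10 kb, 69 member regions remained, and the same results were -27, 8 separated, and 1, 16, 15, 15 and, for double knockout against Ppara knockout, 2 changed regions. Covering at least 50% of a region moved no result past 1.5 times.

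Leaving out each library in turn gave -51.5 to -44.5 by Ppara status, -5.67 to 14.7 by Cpt2 status, 17 to 23 separated regions and 0 genes past the test. A region separated with all libraries stays separated when 1 is left out, so the number of separated regions cannot fall below 17. The Cpt2 difference reversed without Cpt2 knockout 1 (-5.67), Cpt2 knockout 2 (-3.0), Ppara knockout 1 (-3.0) or Ppara knockout 2 (-3.67). With 1 library left out the Cpt2 sides hold unequal shares of Ppara-null libraries, so these values carry the difference by Ppara status. Changed regions, both directions together, ran from 3 to 18 for Cpt2 knockout against WT, 28 to 43 for Ppara knockout against WT, 29 to 48 for double knockout against WT, 28 to 50 for double knockout against Cpt2 knockout and 4 to 18 for double knockout against Ppara knockout. A genotype left with 1 library needs fewer matching calls, so these counts cannot fall. The pairs of Cpt2 knockout with WT and of double knockout with Ppara knockout, one-sided with all libraries, became two-sided in up to 11 and 7 and up to 10 and 8 regions. Without WT 1 they were 6, 43 and 48 for the first 3 pairs, without WT 2 12 for the first, without Cpt2 knockout 1 18 for the first, and without Cpt2 knockout 2 8 for the first and 50 for the fourth. Without double knockout 1 it was 44 for the third, and for the fifth it was 18, 11, 12 and 7 without Ppara knockout 1, Ppara knockout 2, double knockout 1 and double knockout 2.

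Replicate numbers did not pair the libraries: differences between replicates correlated at -0.0314 to 0.0255 over the 6 pairs of genotypes. The replicate block limits only the orders used by the permutation test. The differences of -47 and 4 and the 17 separated regions do not use it and could not change. Its smallest possible exact permutation p was 0.0556, so the 0 genes past the test were fixed in advance. The smallest adjusted p of a member gene with the block was 0.296. Over all alternatives that adjusted p ran from 0.118 to 1. Depth per library is unknown, so a missing call is not evidence of closed chromatin.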
